A study of Mus musculus with 24 samples.

Results

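The genes described here are 45 genes of G2 and mitosis, the stages of the cell cycle in which a cell that has copied its DNA prepares to divide and divides. They were listed by name from knowledge of the cell cycle, by no threshold on their values but with earlier results of these data known, and were looked up by symbol among the 26636 genes measured in each library. All 45 were found. 43 of them reached at least 1 FPKM in at least 3 of 24 libraries and entered the test. Espl1 and Mybl2 did not, and their values are given apart. FPKM is the number of fragments per kilobase of transcript, scaled to the mapped fragments of the library, so levels of different genes can be set side by side per length.

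The cells in all groups were cortical neural progenitors from C57BL/6 mouse embryos of embryonic day 12, expanded with B27 and bFGF to passage 3 and then given differentiation medium. They received (+)-JQ1 or (−)-JQ1, mirror images of 1 molecule. (+)-JQ1 occupies the acetyl-lysine pocket of BET bromodomain proteins, which read acetylated histones, and (−)-JQ1 is the inactive enantiomer used as its control. The groups were (+)-JQ1 at 0.5 µM for 24 h, (−)-JQ1 at 0.5 µM for 24 h, (+)-JQ1 at 0.2 µM for 24 h, (−)-JQ1 at 0.2 µM for 24 h, and the same 4 treatments for 12 h. Each of these 8 groups held 3 poly(A) RNA-seq libraries from separate preparations of cells.

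Entry into mitosis is set by Cdk1, a kinase that is active only when bound to a cyclin of the A or B type. Aurora and polo kinases then build the spindle, the spindle checkpoint holds the cell until each chromosome is attached, and the anaphase promoting complex marks cyclins and securin for destruction. Most of these genes are transcribed late in the cell cycle, under the factors Foxm1 and B-Myb and the MuvB complex, and are silent in cells that have left the cycle. In the embryonic cortex they are therefore expressed in dividing progenitors and not in neurons.

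The libraries were of similar depth. The steps between low FPKM values put their relative depth between 0.939 and 1.05, and the absolute number of reads is unknown. In 1979 of 2306 low genes every value lay within 1% of a whole multiple of a step. FPKM summed to 431766 to 870653 per library. The 2 highest sums belonged to replicate 2 of (+)-JQ1 and replicate 1 of (−)-JQ1 at 0.2 µM and 24 h, where 46.9% and 42.7% of all FPKM lay in Mir5105, a microRNA gene that reached no more than 6.69% elsewhere. All 7 neural progenitor markers looked up, among them Sox2, Nes and Fabp7, were above 0 in each group. Their summed level was 3935 to 6975 FPKM in (+)-JQ1 and 2756 to 5003 FPKM in (−)-JQ1 at 24 h, and limma called 5 of the 7 higher and 1 lower at 0.5 µM, and 1 higher and 1 lower at 0.2 µM. Markers of other cells of the culture differed between the enantiomers as well. The summed level of 8 markers of the oligodendrocyte lineage was 268 to 649 FPKM in (+)-JQ1 and 1383 to 1693 FPKM in (−)-JQ1 at 24 h, and that of 5 astrocyte markers was 853 to 967 FPKM and 1180 to 1394 FPKM. For 4 young neuron markers it was 219 to 301 FPKM in (+)-JQ1 and 156 to 226 FPKM in (−)-JQ1 at 24 h. Of these, limma called 1 higher and 1 lower at 0.5 µM and 24 h. Over 5 pericyte and fibroblast markers the sums at 24 h were 1.63 to 3.41 FPKM and 6.13 to 10.3 FPKM. The part of these cells in the results below was not tested. The summed level of 6 microglia markers was at most 1.22 FPKM and that of 4 erythroid markers at most 0.293 FPKM. Of 5 endothelial markers, Cdh5 and Cldn5 were listed at 0 throughout. Kdr had a mean of 1.37 FPKM in (+)-JQ1 and 4.92 FPKM in (−)-JQ1 at 0.5 µM and 24 h.

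Replicate 3 of each group at 12 h stood apart for these genes. It was the highest of the 3 replicates for 45 of 45 genes in (+)-JQ1 and 40 of 45 in (−)-JQ1 at 0.5 µM, and for 45 and 43 of 45 at 0.2 µM. Over all genes tested replicate 3 was the highest for 35.5%, 41.1%, 46.4% and 47.3% in the same 4 groups. The median over the 45 genes at 0.5 µM and 12 h was 1.64, 1.63 and 4.21 FPKM in (+)-JQ1 and 1.47, 1.61 and 2.30 FPKM in (−)-JQ1. At 24 h replicate 3 was the highest for at most 6 of the 45 genes in each group. Replicate 1 of (−)-JQ1 at 0.5 µM and 24 h also stood apart, as the highest for 39 of 45, against 37.3% of all genes tested. Counts of genes called at 12 h and between the times are given with and without the 4 replicate 3 libraries at 12 h.

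**Figure D1:**
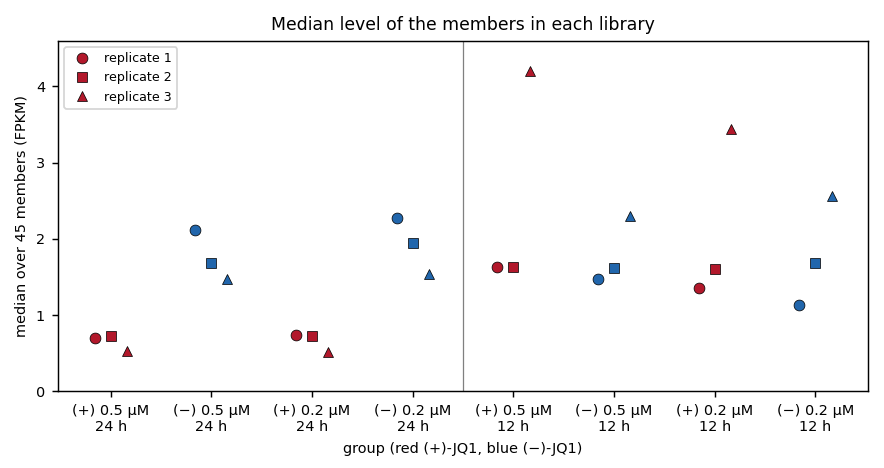
Median level of the 45 genes in FPKM (vertical axis) in each of the 24 libraries (points; circle, square and triangle are replicates 1, 2 and 3), by group along the horizontal axis, with (+)-JQ1 in red and (−)-JQ1 in blue. At 24 h the 6 (+) libraries lie between 0.517 and 0.744 FPKM and the 6 (−) libraries between 1.48 and 2.27 FPKM, while at 12 h replicate 3 is the highest point of each group.

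The genes were expressed at low levels. The mean over the 24 libraries was 38.8 FPKM for Bub3, 17.9 FPKM for Smc4 and at most a few FPKM for most others, with a median of 1.84 FPKM. 41 of the 45 were below 5 FPKM and 14 below 1 FPKM, down to 0.248 FPKM for Espl1. Tests were run on log2(FPKM + 1), on which a given fold change of a gene below 1 FPKM looks smaller than that of a highly expressed gene.

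At 24 h the G2 and mitosis genes were lower in (+)-JQ1 than in (−)-JQ1 at both doses. At 0.5 µM, 26 of 43 fell and 1, Bub3, rose, at a limma adjusted p under 0.05, against 24.5% lower and 13.7% higher among the 13801 genes tested. At 0.2 µM, 26 of 43 fell and 0 rose, against 21.8% lower and 11% higher. An unadjusted p under 0.05 was found for 31 of the 43 and for 5891 of the 13801 genes tested. The median log2 fold change was -0.78 at 0.5 µM and -0.68 at 0.2 µM, against -0.05 and -0.07 over all genes tested. 39 of 43 genes were negative at 0.5 µM and 42 of 43 at 0.2 µM, against 7624 and 7878 of the 13801 genes tested. In 35 of the 45 genes at 0.5 µM and 38 of the 45 at 0.2 µM, each (+) library was below each (−) library, a separation found in 29.4% and 22.3% of all genes tested. 22 genes fell at both doses, 4 at 0.5 µM only (Aurka, Cenpe, Hmmr and Kif2c) and 4 at 0.2 µM only (Anln, Ccnb1, Cdc20 and Pttg1), though the difference between the doses passed for 0 of the 43. In bulk RNA, fewer dividing cells and less RNA of these genes per dividing cell cannot be told apart. The count of 26 at 0.2 µM was 10 without the 2 libraries with high Mir5105, with 42 of 43 genes still negative and a median of -0.68, and 4 with library weights. Without (−) replicate 1 the count was 16 at each dose, and without (+) replicate 3 it was 14 at 0.2 µM.

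**Figure D2:**
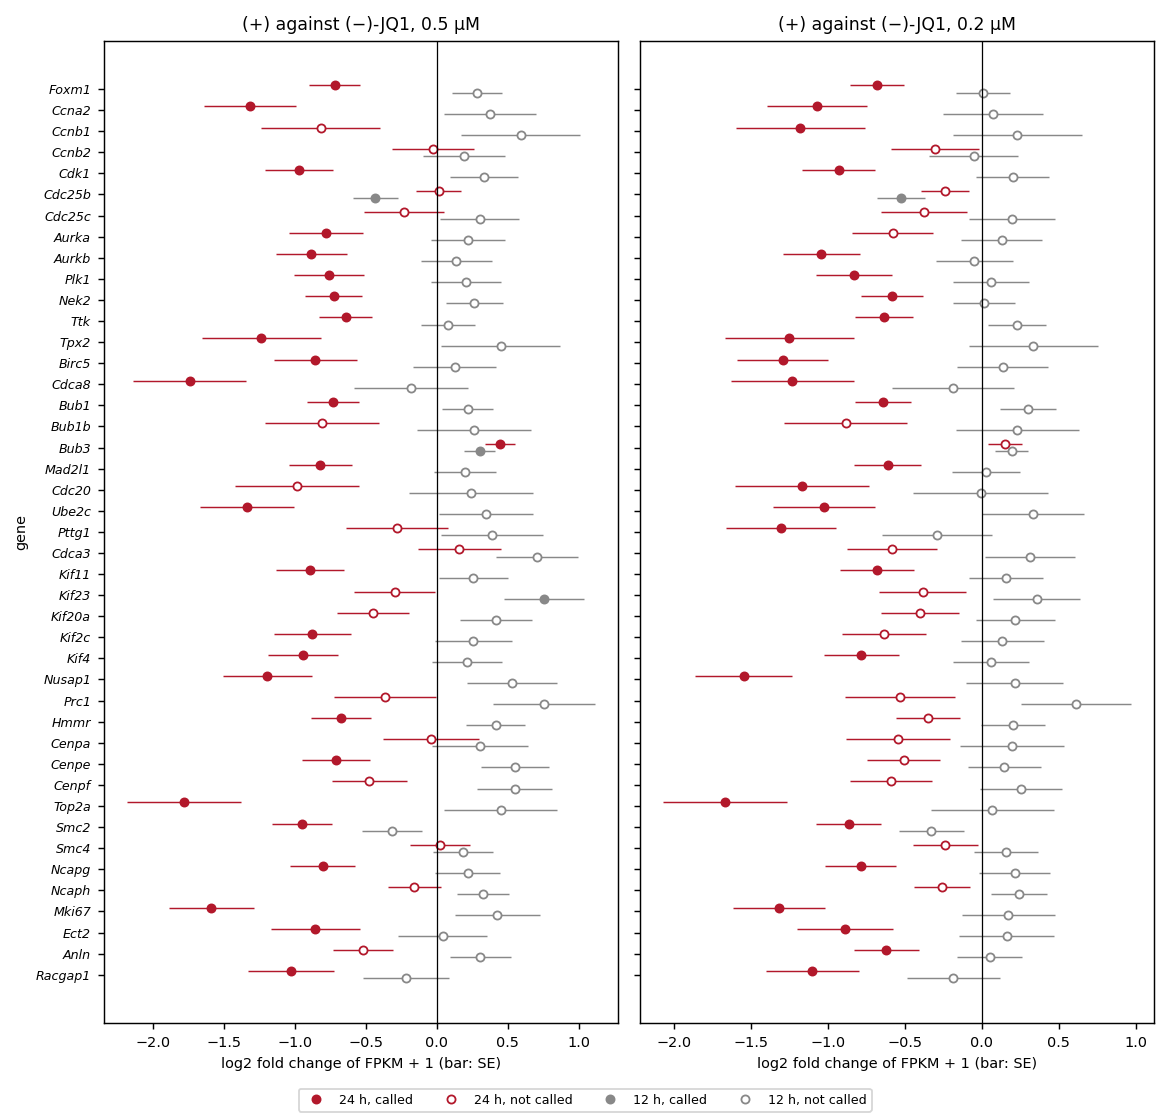
Log2 fold change of FPKM + 1, (+) against (−)-JQ1 (horizontal axis; bars are the SE), for the 43 genes tested (vertical axis, by role), at 0.5 µM (left) and 0.2 µM (right), with 24 h in red and 12 h in grey and filled points for genes called by limma. Nearly all 24 h points lie left of 0 (39 of 43 and 42 of 43), and most 12 h points lie right of it (39 of 43 and 35 of 43).

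Of the transcription factors, Foxm1, a forkhead factor that switches on genes of G2 and mitosis, stood at 0.619, 1.15 and 1.09 FPKM in (+)-JQ1 and 2.24, 2.32 and 2.03 FPKM in (−)-JQ1 at 0.5 µM and 24 h. At 0.2 µM and 24 h it was at 1.15, 1.24 and 0.859 FPKM in (+)-JQ1 and 2.75, 2.61 and 1.72 FPKM in (−)-JQ1. The groups did not overlap at either dose, and the log2 fold changes were -0.72 ± 0.18 (SE, adjusted p = 0.00260) and -0.68 ± 0.18 (adjusted p = 0.00542). Mybl2, which codes for B-Myb, was at 0.319, 0.348 and 0.147 FPKM in (+)-JQ1 and 0.952, 0.780 and 0.862 FPKM in (−)-JQ1 at 0.5 µM. At 0.2 µM its libraries read 0.478, 0.527 and 0.175 FPKM in (+)-JQ1 and 1.39, 0.945 and 0.744 FPKM in (−)-JQ1. Its highest (+) library was below its lowest (−) library at each dose. Since it was below the filter on low values, its fold changes come from a fit to 21657 genes without that filter, with log2 -0.55 ± 0.14 (adjusted p = 0.00390) and -0.54 ± 0.14 (adjusted p = 0.00630).

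Among Cdk1, its cyclins and the Cdc25 phosphatases that activate it, 2 of 6 fell at 0.5 µM and 3 of 6 at 0.2 µM. Among all genes tested 24.5% and 21.8% fell. Cdk1, the kinase that drives entry into mitosis, had 0.518, 0.295 and 0.453 FPKM in (+)-JQ1 and 2.27, 1.74 and 1.39 FPKM in (−)-JQ1 at 0.5 µM. At 0.2 µM it had 0.693, 0.727 and 0.296 FPKM in (+)-JQ1 and 3.15, 1.59 and 1.44 FPKM in (−)-JQ1. It was lower in all 6 (+) libraries than in any (−) library of its dose, with log2 -0.97 ± 0.24 (adjusted p = 0.00244) and -0.93 ± 0.24 (adjusted p = 0.00446). Ccna2, which codes for cyclin A2, a partner of Cdk2 in S phase and of Cdk1 in G2, had the largest log2 fold change of FPKM + 1 of this group at 0.5 µM. It was at 2.14, 2.37 and 1.62 FPKM in (+)-JQ1 and 8.56, 6.85 and 4.72 FPKM in (−)-JQ1 at 0.5 µM, and at 2.86, 2.09 and 1.64 FPKM in (+)-JQ1 and 5.31, 7.13 and 4.65 FPKM in (−)-JQ1 at 0.2 µM. The groups were apart at both doses (log2 -1.32 ± 0.32, adjusted p = 0.00284, and -1.07 ± 0.32, adjusted p = 0.0156).

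Ccnb1, the gene of cyclin B1, was at 0.773, 0.412 and 0.244 FPKM in (+)-JQ1 and 2.00, 1.47 and 1.31 FPKM in (−)-JQ1 at 0.5 µM. At 0.2 µM the values were 0.258, 0.416 and 0.103 FPKM in (+)-JQ1 and 3.38, 1.27 and 1.29 FPKM in (−)-JQ1. The groups did not overlap at either dose, yet by the test Ccnb1 fell at 0.2 µM (log2 -1.18 ± 0.42, adjusted p = 0.0373), with log2 -0.82 ± 0.42 at 0.5 µM (adjusted p = 0.138). The fit shares its estimate of the spread with the 12 h libraries, in which Ccnb1 reached 8.28 FPKM. Ccnb2, the gene of cyclin B2, did not pass at either dose, with log2 -0.03 ± 0.29 (95% interval -0.63 to 0.57) and -0.30 ± 0.29. Cdc25b, a phosphatase that starts the activation of Cdk1, had the smallest change of the group at 0.5 µM, with 2.73, 3.66 and 3.39 FPKM in (+)-JQ1 and 3.26, 3.47 and 2.90 FPKM in (−)-JQ1. Its values at 0.2 µM were 3.18, 4.13 and 2.76 FPKM in (+)-JQ1 and 5.89, 3.11 and 3.70 FPKM in (−)-JQ1. Its groups overlapped at both doses (log2 0.01 ± 0.16, 95% interval -0.31 to 0.34, and -0.24 ± 0.16). Its relative Cdc25c was at or below 0.466 FPKM in the 6 libraries at 0.5 µM and did not pass (log2 -0.23 ± 0.28 and -0.37 ± 0.28).

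The mitotic kinases and their partners fell together: 8 of 8 were lower at 0.5 µM and 7 of 8 at 0.2 µM, with medians of log2 -0.82 and -0.93. Lower calls made up 24.5% and 21.8% of all genes tested. Cdca8, which codes for borealin, a subunit of the chromosomal passenger complex of Aurora B, had 0.423, 0.857 and 0.181 FPKM in (+)-JQ1 and 5.31, 4.59 and 2.30 FPKM in (−)-JQ1 at 0.5 µM. In the 0.2 µM groups it had 0.883, 1.11 and 0.552 FPKM in (+)-JQ1 and 3.96, 2.67 and 3.37 FPKM in (−)-JQ1. It fell, with log2 fold changes of -1.74 ± 0.40 (adjusted p = 0.00167) and -1.23 ± 0.40 (adjusted p = 0.0230), without overlap. The other 2 members of that complex on the list, the kinase gene Aurkb and the survivin gene Birc5, were lower too, with log2 -0.88 ± 0.25 and -0.85 ± 0.29 at 0.5 µM and -1.04 ± 0.25 and -1.29 ± 0.29 at 0.2 µM.

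Aurka, the kinase of spindle poles, stood at 0.354, 0.563 and 0.859 FPKM in (+)-JQ1 and 2.12, 1.36 and 1.72 FPKM in (−)-JQ1 at 0.5 µM. The lower dose gave 1.03, 0.826 and 0.513 FPKM in (+)-JQ1 and 2.61, 1.26 and 1.29 FPKM in (−)-JQ1. The (+) libraries were the lower ones at each dose, and the change passed at 0.5 µM (log2 -0.78 ± 0.26, adjusted p = 0.0220) but not at 0.2 µM (-0.58 ± 0.26, adjusted p = 0.0953). Tpx2, which activates Aurora A on the spindle, fell (log2 -1.24 ± 0.42 and -1.25 ± 0.42). Plk1, the polo kinase that acts from mitotic entry to cytokinesis, was at 0.645, 0.740 and 0.430 FPKM in (+)-JQ1 and 1.71, 2.15 and 1.34 FPKM in (−)-JQ1 at 0.5 µM. At 0.2 µM its values were 0.712, 0.527 and 0.567 FPKM in (+)-JQ1 and 2.05, 1.94 and 1.55 FPKM in (−)-JQ1. Each (+) library was below each (−) library, and Plk1 fell, with log2 fold changes of -0.76 ± 0.25 (adjusted p = 0.0182) and -0.83 ± 0.25 (adjusted p = 0.0134). Ttk, the checkpoint kinase Mps1, had the smallest log2 fold change of FPKM + 1 of the 8 at 0.5 µM, with 0.754, 0.451 and 0.414 FPKM in (+)-JQ1 and 1.87, 1.22 and 1.15 FPKM in (−)-JQ1. At 0.2 µM it had 0.310, 0.488 and 0.517 FPKM in (+)-JQ1 and 1.19, 1.29 and 1.20 FPKM in (−)-JQ1. It was still lower without overlap (log2 -0.64 ± 0.19 and -0.63 ± 0.19). Nek2, a centrosome kinase, fell (log2 -0.73 ± 0.20 and -0.58 ± 0.20).

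For 5 of the genes with low levels, each value was, within 1%, a whole multiple of a step, the smallest amount by which that gene's values differ. In such steps Nek2 had 0, 2 and 3 in (+)-JQ1 and 43, 20 and 16 in (−)-JQ1 at 0.5 µM and 24 h. Aurkb had 1, 9 and 2 steps in (+)-JQ1 and 29, 25 and 19 in (−)-JQ1 in the same groups. Espl1, which codes for separase, the protease that opens cohesin at anaphase, had 5, 3 and 4 steps in (+)-JQ1 and 26, 13 and 22 in (−)-JQ1. For these 3 genes the (+) libraries rest on at most 9 steps each, so their fold is imprecise, and the groups did not overlap. The rest of the 5 were less apart in those groups. Pttg1 had 8, 12 and 6 steps in (+)-JQ1 and 12, 11 and 12 in (−)-JQ1, which overlapped. Cdc25c had 6, 1 and 3 steps in (+)-JQ1 and 9, 7 and 6 in (−)-JQ1, which met at 6. Espl1 was below the filter, and in the fit without it had log2 -0.27 ± 0.13 at 0.5 µM (adjusted p = 0.127) and -0.45 ± 0.13 at 0.2 µM (adjusted p = 0.0136).

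The spindle checkpoint genes split. Of 4, 2 fell at each dose, and Bub3 rose at 0.5 µM. Of all genes tested, 24.5% fell at 0.5 µM and 21.8% at 0.2 µM, and 13.7% rose at 0.5 µM. Bub3, which brings Bub1 and BubR1 to unattached kinetochores and also acts outside mitosis, stood at 43.6, 42.3 and 46.3 FPKM in (+)-JQ1 and 31.2, 30.1 and 35.2 FPKM in (−)-JQ1 at 0.5 µM. Its values at 0.2 µM were 40.5, 39.2 and 42.2 FPKM in (+)-JQ1 and 35.8, 29.99 and 44.99 FPKM in (−)-JQ1. The (+) libraries were the higher ones at 0.5 µM, with log2 0.44 ± 0.11 (adjusted p = 0.00227), and overlapped with the (−) libraries at 0.2 µM (0.15 ± 0.11, adjusted p = 0.297). Mad2l1, the gene of the checkpoint protein Mad2, moved the other way, with 2.20, 2.23 and 3.00 FPKM in (+)-JQ1 and 5.74, 5.65 and 4.08 FPKM in (−)-JQ1 at 0.5 µM. In the 0.2 µM groups it had 3.63, 2.02 and 2.75 FPKM in (+)-JQ1 and 4.49, 6.03 and 3.85 FPKM in (−)-JQ1. It fell, with log2 fold changes of -0.82 ± 0.22 (adjusted p = 0.00503) and -0.61 ± 0.22 (adjusted p = 0.0367). Bub1, a kinase of the checkpoint, fell (log2 -0.73 ± 0.18 and -0.64 ± 0.18). Bub1b, the gene of BubR1, had log2 -0.81 ± 0.40 (adjusted p = 0.124) and -0.88 ± 0.40 (adjusted p = 0.0972) and did not pass, although its highest (+) library, 0.226 FPKM at 0.5 µM and 0.290 FPKM at 0.2 µM, was below its lowest (−) library.

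Of the 4 genes of anaphase and protein destruction that were tested, 1 fell at 0.5 µM and 3 at 0.2 µM. Over all genes tested 24.5% and 21.8% fell, so the count at 0.5 µM was near that share. Ube2c, the ubiquitin-conjugating enzyme of the anaphase promoting complex, was at 1.50, 1.37 and 1.95 FPKM in (+)-JQ1 and 7.23, 4.92 and 4.77 FPKM in (−)-JQ1 at 0.5 µM. The lower dose gave 1.82, 2.96 and 2.32 FPKM in (+)-JQ1 and 6.16, 4.61 and 6.76 FPKM in (−)-JQ1. Both doses kept the groups apart (log2 -1.33 ± 0.33, adjusted p = 0.00310, and -1.02 ± 0.33, adjusted p = 0.0225). Cdc20, the activator of that complex, had log2 -0.98 ± 0.44 (adjusted p = 0.0847) and fell at 0.2 µM (-1.17 ± 0.44, adjusted p = 0.0471). That call was kept in 3 of 15 fits with other settings or libraries left out. Pttg1, the gene of securin, which holds separase inactive, had log2 -0.28 ± 0.36 at 0.5 µM (95% interval -1.03 to 0.47) and fell at 0.2 µM (-1.30 ± 0.36, adjusted p = 0.00842). The difference between these doses did not pass (log2 1.02 ± 0.51, adjusted p = 0.924). Cdca3, part of the machinery that degrades the mitotic inhibitor Wee1, changed least, with 2.01, 1.49 and 1.74 FPKM in (+)-JQ1 and 1.54, 1.35 and 1.48 FPKM in (−)-JQ1 at 0.5 µM. At 0.2 µM it had 0.912, 1.78 and 1.02 FPKM in (+)-JQ1 and 2.00, 2.12 and 2.85 FPKM in (−)-JQ1. The groups overlapped at 0.5 µM and not at 0.2 µM, and neither change passed (log2 0.16 ± 0.29 and -0.58 ± 0.29).

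Among 8 genes of kinesins, the spindle and the midzone, 5 fell at 0.5 µM and 3 at 0.2 µM, and all 8 had negative fold changes at both doses. By the same test 24.5% and 21.8% of all 13801 genes tested fell, and 7624 and 7878 of them had negative fold changes. Nusap1, which bundles spindle microtubules near chromosomes, was at 1.06, 0.727 and 0.647 FPKM in (+)-JQ1 and 4.41, 3.06 and 2.19 FPKM in (−)-JQ1 at 0.5 µM. Its values at 0.2 µM were 0.516, 0.446 and 0.525 FPKM in (+)-JQ1 and 3.25, 4.17 and 2.79 FPKM in (−)-JQ1. Its log2 fold changes were -1.19 ± 0.31 (adjusted p = 0.00467) and -1.55 ± 0.31 (adjusted p = 0.000714), without overlap. Kif11, the kinesin that pushes spindle poles apart, fell (log2 -0.89 ± 0.24 and -0.68 ± 0.24), and so did the chromokinesin Kif4 (-0.94 ± 0.25 and -0.78 ± 0.25). The microtubule depolymerase Kif2c and the spindle protein Hmmr fell at 0.5 µM (log2 -0.88 ± 0.27 and -0.68 ± 0.21) and did not pass at 0.2 µM (-0.63 ± 0.27 and -0.35 ± 0.21).

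The other 3 genes of that set, Kif23, Prc1 and Kif20a, did not pass at either dose. Kif23, the kinesin of the centralspindlin complex, had 0.640, 1.13 and 0.320 FPKM in (+)-JQ1 and 1.48, 1.08 and 0.668 FPKM in (−)-JQ1 at 0.5 µM. In the 0.2 µM groups it had 0.675, 0.572 and 0.623 FPKM in (+)-JQ1 and 1.27, 1.82 and 0.480 FPKM in (−)-JQ1. The groups overlapped at both doses (log2 -0.30 ± 0.28, 95% interval -0.89 to 0.29, and -0.38 ± 0.28). Prc1, which bundles midzone microtubules, had log2 -0.36 ± 0.36 and -0.53 ± 0.36, and the kinesin Kif20a had -0.45 ± 0.25 and -0.40 ± 0.25.

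Of 3 centromere genes, 1 fell at 0.5 µM and 0 at 0.2 µM, where 2 of the 3 had an unadjusted p under 0.05. The shares of all genes tested that fell were 24.5% and 21.8%, and 5891 of 13801 had an unadjusted p under 0.05 at 0.2 µM. Cenpe, a kinetochore motor, was at 0.452, 0.526 and 0.203 FPKM in (+)-JQ1 and 1.63, 1.28 and 0.951 FPKM in (−)-JQ1 at 0.5 µM. The lower dose gave 0.418, 0.265 and 0.206 FPKM in (+)-JQ1 and 0.819, 1.12 and 0.609 FPKM in (−)-JQ1. The (+) libraries were lower at both doses and passed at 0.5 µM (log2 -0.71 ± 0.24, adjusted p = 0.0217, against -0.51 ± 0.24, adjusted p = 0.108). Cenpa, the histone H3 variant that marks centromeres, had 1.52, 0.615 and 0.834 FPKM in (+)-JQ1 and 0.873, 1.02 and 1.14 FPKM in (−)-JQ1 at 0.5 µM. At 0.2 µM it had 1.26, 1.55 and 0.462 FPKM in (+)-JQ1 and 1.66, 1.68 and 2.66 FPKM in (−)-JQ1. Its groups overlapped at 0.5 µM (log2 -0.04 ± 0.34, 95% interval -0.75 to 0.67) and not at 0.2 µM (-0.54 ± 0.34). The kinetochore protein gene Cenpf had log2 -0.48 ± 0.27 and -0.59 ± 0.27 and did not pass.

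Of the genes of chromosome structure, 4 of 6 fell at each dose, against 24.5% and 21.8% of all genes tested at 0.5 and 0.2 µM. Top2a had the most negative log2 fold change of FPKM + 1 of all 43 at 0.5 µM. By the ratio of group means without the added 1, (+) over (−)-JQ1, Top2a stood 11th of 45 at 0.195, and the lowest were Nek2 at 0.0626, Mki67 at 0.105 and Bub1 at 0.110. Top2a, the topoisomerase that untangles sister DNA, was at 1.85, 1.81 and 0.532 FPKM in (+)-JQ1 and 9.40, 7.39 and 4.69 FPKM in (−)-JQ1 at 0.5 µM. Its values at 0.2 µM were 2.12, 1.12 and 1.11 FPKM in (+)-JQ1 and 7.04, 9.18 and 4.48 FPKM in (−)-JQ1. Each (+) library was below each (−) library, and Top2a fell, with log2 fold changes of -1.78 ± 0.40 (adjusted p = 0.00145) and -1.67 ± 0.40 (adjusted p = 0.00328). Mki67, which coats mitotic chromosomes and is the usual marker of dividing cells, had 0.444, 0.406 and 0.0958 FPKM in (+)-JQ1 and 3.97, 3.00 and 2.04 FPKM in (−)-JQ1 at 0.5 µM. In the 0.2 µM groups it had 0.466, 0.276 and 0.124 FPKM in (+)-JQ1 and 1.91, 3.23 and 1.64 FPKM in (−)-JQ1. The means were 0.105 and 0.128 of those in (−)-JQ1, and the log2 fold changes were -1.59 ± 0.30 (adjusted p = 0.000238) and -1.32 ± 0.30 (adjusted p = 0.00192).

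The condensin genes, whose products compact chromosomes, differed among themselves. Smc2, the core subunit of both condensins, fell (log2 -0.95 ± 0.21 and -0.86 ± 0.21), as did Ncapg of condensin I (-0.80 ± 0.23 and -0.79 ± 0.23). Smc4, the partner of Smc2, stood at 24.9, 22.9 and 15.3 FPKM in (+)-JQ1 and 26.7, 21.9 and 14.1 FPKM in (−)-JQ1 at 0.5 µM. The lower dose gave 18.6, 11.9 and 16.5 FPKM in (+)-JQ1 and 14.5, 25.1 and 16.9 FPKM in (−)-JQ1. Its groups overlapped widely (log2 0.02 ± 0.21, 95% interval -0.41 to 0.46, and -0.24 ± 0.21). Ncaph, another subunit of condensin I, had log2 -0.16 ± 0.18 (95% interval -0.54 to 0.23) and -0.26 ± 0.18.

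All 3 cytokinesis genes were lower, 2 by the test at 0.5 µM and 3 at 0.2 µM. The test called 24.5% and 21.8% of all genes tested lower. Racgap1, the partner of Kif23 in centralspindlin, was at 2.92, 2.28 and 2.08 FPKM in (+)-JQ1 and 6.73, 6.40 and 4.85 FPKM in (−)-JQ1 at 0.5 µM. At 0.2 µM it was at 2.57, 1.79 and 2.53 FPKM in (+)-JQ1 and 6.26, 6.82 and 5.09 FPKM in (−)-JQ1. The groups stood apart at both doses, with log2 -1.03 ± 0.30 (adjusted p = 0.00979) and -1.10 ± 0.30 (adjusted p = 0.00777). Anln, which codes for anillin, a scaffold of the contractile ring, had 0.428, 0.284 and 0.165 FPKM in (+)-JQ1 and 1.31, 0.634 and 0.677 FPKM in (−)-JQ1 at 0.5 µM. Its values at 0.2 µM were 0.465, 0.387 and 0.201 FPKM in (+)-JQ1 and 1.29, 1.09 and 0.842 FPKM in (−)-JQ1. The groups did not overlap, and the fall passed at 0.2 µM (log2 -0.62 ± 0.21, adjusted p = 0.0297) and narrowly not at 0.5 µM (-0.52 ± 0.21, adjusted p = 0.0578). Ect2, the exchange factor that activates RhoA at the division plane, fell (log2 -0.86 ± 0.31 and -0.89 ± 0.31). Its calls were lost in 7 of 14 fits at 0.5 µM and 9 of 15 at 0.2 µM with other settings or libraries left out.

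**Figure D3:**
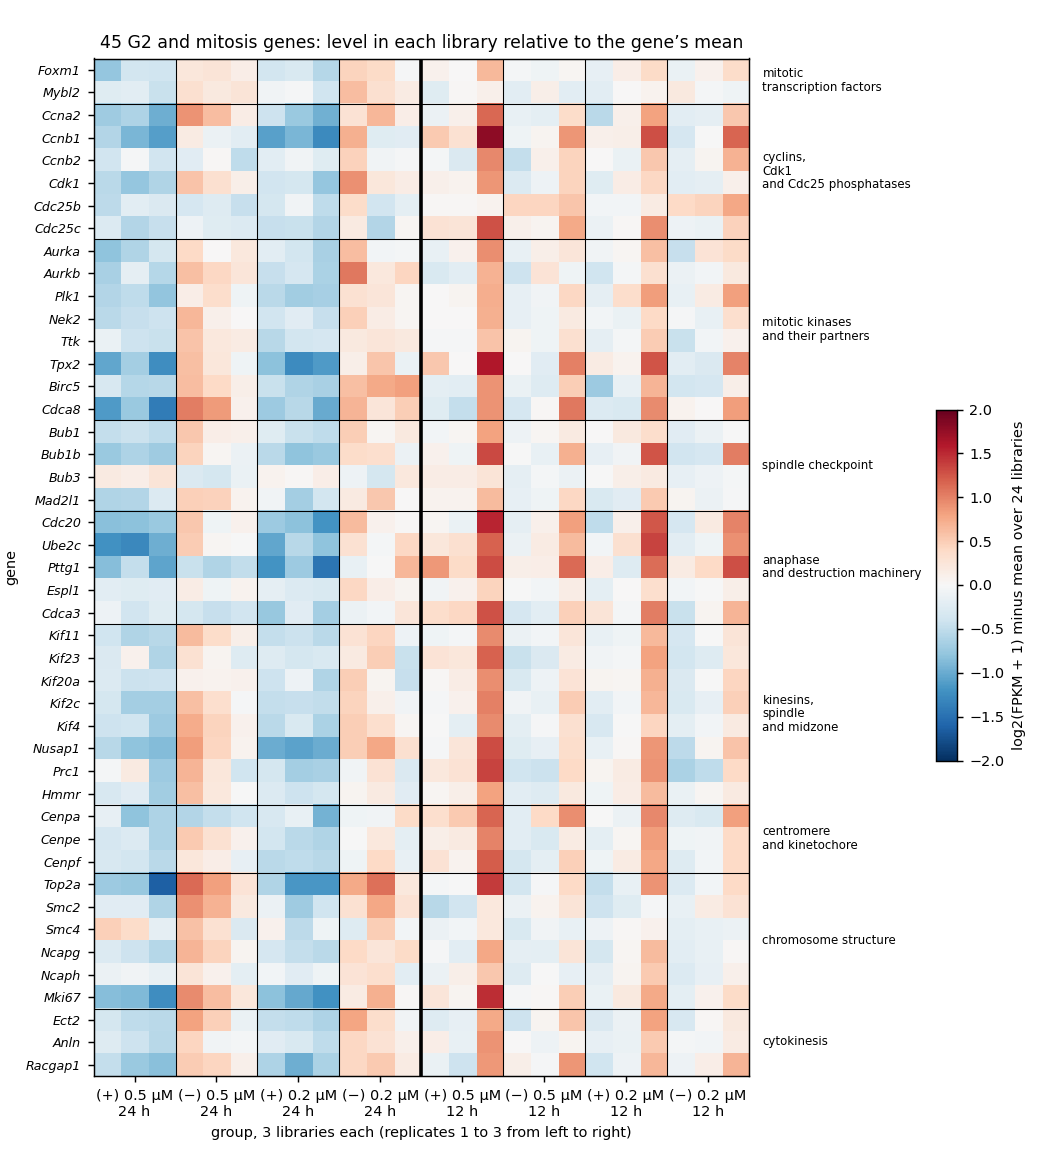
Level of each of the 45 genes (rows, by role) in each of the 24 libraries (columns, replicates 1 to 3 from left to right in each group), as log2(FPKM + 1) minus the mean of that gene over the 24 libraries, with red above and blue below that mean. The (+)-JQ1 columns at 24 h are blue for most genes, with Bub3 and Smc4 as exceptions, and replicate 3 at 12 h is the reddest column of its group.

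At 12 h, 1 of the genes was lower in (+)-JQ1. In (+) against (−)-JQ1 at 0.5 µM, 2 of 43 rose, Bub3 and Kif23, and 1 fell, Cdc25b, against 12.2% higher and 26.1% lower among all genes tested. At 0.2 µM, 0 rose and 1 fell, again Cdc25b, against 8.23% and 19.6%. Cdc25b was the only 1 of the 43 with an unadjusted p under 0.05, against 5122 of 13801 genes tested. The fold changes were positive for 39 of 43 genes at 0.5 µM and 35 of 43 at 0.2 µM, with medians of log2 0.28 and 0.16, against -0.10 and -0.07 over all genes tested. Positive fold changes were found for 5516 and 5624 of those 13801 genes. In 2 of the 45 genes at 0.5 µM and 3 of the 45 at 0.2 µM each (+) library was above each (−) library, against 20.7% and 16.8% of all genes tested. Without the 4 replicate 3 libraries, 33 of 43 genes were positive at 0.5 µM and 28 of 43 at 0.2 µM, with medians of 0.14 and 0.08. In that fit 1 gene, Cdca3, rose at 0.5 µM and 0 passed at 0.2 µM. With all libraries, the count that rose at 0.5 µM was 5 under median-of-ratios scaling, 8 with library weights and 9 after correction for GC content. The count that fell there was 0 under that scaling and that correction.

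Kif23 at 12 h was at 1.42, 1.35 and 3.56 FPKM in (+)-JQ1 and 0.475, 0.633 and 1.24 FPKM in (−)-JQ1 at 0.5 µM, and at 0.901, 0.942 and 2.49 FPKM in (+)-JQ1 and 0.548, 0.684 and 1.35 FPKM in (−)-JQ1 at 0.2 µM. At 0.5 µM each (+) library was above each (−) library (log2 0.75 ± 0.28, adjusted p = 0.0414), and at 0.2 µM the groups overlapped (0.36 ± 0.28). The rise did not pass without the 4 replicate 3 libraries (log2 0.62, adjusted p = 0.0824). Bub3 at 12 h stood at 43.0, 42.9 and 46.2 FPKM in (+)-JQ1 and 34.0, 37.4 and 35.4 FPKM in (−)-JQ1 at 0.5 µM, and at 38.3, 41.8 and 43.7 FPKM in (+)-JQ1 and 34.3, 36.0 and 37.6 FPKM in (−)-JQ1 at 0.2 µM. The (+) libraries were the higher ones at both doses, with log2 0.30 ± 0.11 (adjusted p = 0.0317) and 0.19 ± 0.11 (adjusted p = 0.199). Its value without the replicate 3 libraries was 0.26 at 0.5 µM (adjusted p = 0.209). Cdc25b at 12 h had 4.45, 4.45 and 4.63 FPKM in (+)-JQ1 and 6.25, 6.25 and 6.86 FPKM in (−)-JQ1 at 0.5 µM, and 4.14, 4.16 and 5.02 FPKM in (+)-JQ1 and 6.05, 6.33 and 8.20 FPKM in (−)-JQ1 at 0.2 µM. It was the only gene of the 45 whose (+) libraries all lay below its (−) libraries at 12 h, a separation found in 37.5% and 30.2% of all genes tested. Its log2 fold changes were -0.43 ± 0.16 (adjusted p = 0.0328) and -0.52 ± 0.16 (adjusted p = 0.0153). Neither call was kept without the replicate 3 libraries (-0.41, adjusted p = 0.145, and -0.48, adjusted p = 0.115).

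The 3 genes with the most negative log2 fold changes of FPKM + 1 at 0.5 µM and 24 h did not pass at 12 h at either dose. Mki67 had 2.06, 1.71 and 6.20 FPKM in (+)-JQ1 and 1.55, 1.65 and 2.65 FPKM in (−)-JQ1 at 0.5 µM and 12 h, and 1.36, 1.96 and 3.40 FPKM in (+)-JQ1 and 1.28, 1.76 and 2.40 FPKM in (−)-JQ1 at 0.2 µM. Top2a had 3.59, 3.70 and 11.5 FPKM in (+)-JQ1 and 2.67, 3.63 and 5.24 FPKM in (−)-JQ1 at 0.5 µM, and 2.40, 3.27 and 7.85 FPKM in (+)-JQ1 and 2.92, 3.53 and 5.26 FPKM in (−)-JQ1 at 0.2 µM. Cdca8 had 1.64, 1.24 and 4.81 FPKM in (+)-JQ1 and 1.47, 2.15 and 5.44 FPKM in (−)-JQ1 at 0.5 µM, and 1.56, 1.52 and 4.97 FPKM in (+)-JQ1 and 2.26, 2.14 and 4.54 FPKM in (−)-JQ1 at 0.2 µM. In each of these the groups overlapped, and replicate 3 was the highest library of its group. At 0.5 µM the log2 fold changes at 12 h were 0.42 ± 0.30 for Mki67 (95% interval -0.20 to 1.05), 0.45 ± 0.40 for Top2a (-0.39 to 1.29) and -0.18 ± 0.40 for Cdca8 (-1.02 to 0.65).

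The other genes whose values are followed through did not pass at 12 h either. Ccnb1 stood at 2.83, 2.30 and 8.28 FPKM in (+)-JQ1 and 1.51, 1.77 and 3.95 FPKM in (−)-JQ1 at 0.5 µM, and at 1.88, 1.91 and 5.53 FPKM in (+)-JQ1 and 1.12, 1.66 and 4.98 FPKM in (−)-JQ1 at 0.2 µM. Cdk1 stood at 1.36, 1.33 and 3.06 FPKM in (+)-JQ1 and 0.819, 1.06 and 2.00 FPKM in (−)-JQ1 at 0.5 µM, and at 0.868, 1.44 and 1.95 FPKM in (+)-JQ1 and 0.907, 0.957 and 1.37 FPKM in (−)-JQ1 at 0.2 µM. Both were highest in replicate 3 of each group, and the enantiomers overlapped. Plk1 was at 1.49, 1.57 and 3.12 FPKM in (+)-JQ1 and 1.21, 1.36 and 2.31 FPKM in (−)-JQ1 at 0.5 µM, and at 1.20, 2.17 and 3.45 FPKM in (+)-JQ1 and 1.25, 1.78 and 3.39 FPKM in (−)-JQ1 at 0.2 µM. Aurka was at 1.13, 1.51 and 3.47 FPKM in (+)-JQ1 and 1.14, 1.55 and 1.79 FPKM in (−)-JQ1 at 0.5 µM, and at 1.26, 1.43 and 2.58 FPKM in (+)-JQ1 and 0.708, 1.84 and 2.09 FPKM in (−)-JQ1 at 0.2 µM. These kinases overlapped between the enantiomers at both doses. Foxm1 had 1.95, 1.79 and 3.35 FPKM in (+)-JQ1 and 1.68, 1.61 and 1.84 FPKM in (−)-JQ1 at 0.5 µM, and 1.48, 2.04 and 2.61 FPKM in (+)-JQ1 and 1.52, 1.95 and 2.57 FPKM in (−)-JQ1 at 0.2 µM. Mybl2 had 0.321, 0.574 and 0.660 FPKM in (+)-JQ1 and 0.345, 0.681 and 0.348 FPKM in (−)-JQ1 at 0.5 µM, and 0.342, 0.570 and 0.640 FPKM in (+)-JQ1 and 0.781, 0.509 and 0.461 FPKM in (−)-JQ1 at 0.2 µM. For the 2 transcription factors the log2 fold changes at 0.5 µM were 0.28 ± 0.18 (adjusted p = 0.225) and, without the filter on low values, 0.06 ± 0.14 (adjusted p = 0.850).

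**Figure D4:**
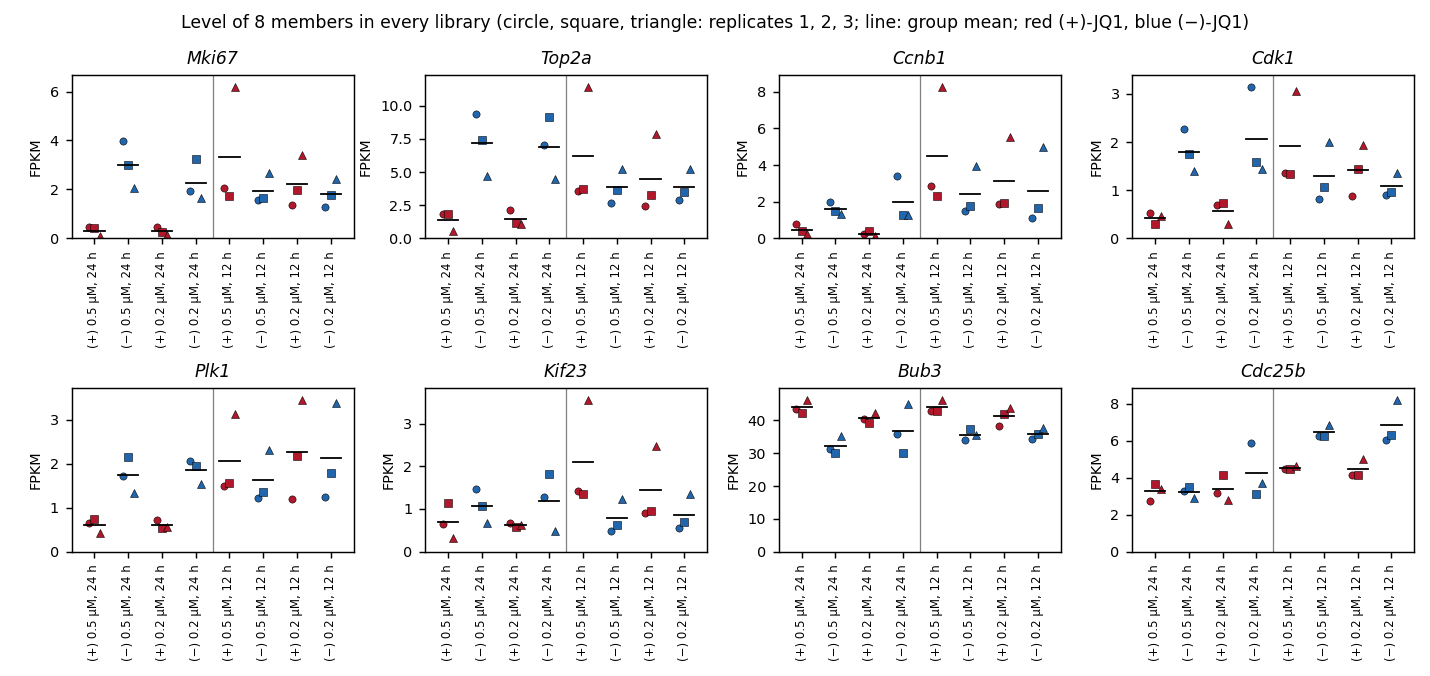
Level in FPKM (vertical axis of each panel, from 0) of 8 genes in every library, by group along the horizontal axis, with (+)-JQ1 in red and (−)-JQ1 in blue, circle, square and triangle for replicates 1, 2 and 3 and a line at the group mean. Mki67, Top2a, Ccnb1, Cdk1 and Plk1 are low in (+)-JQ1 at 24 h and not at 12 h, Bub3 is higher in (+)-JQ1 at 0.5 µM, and Cdc25b is lower in (+)-JQ1 at 12 h and not at 24 h.

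The effect of the enantiomer, (+) minus (−)-JQ1, was set against itself at the 2 times. The difference, 24 h minus 12 h, was negative for 41 of 43 genes at 0.5 µM, with a median of log2 -1.02, and for 42 of 43 at 0.2 µM, with a median of -0.86. By limma it passed for 1 gene at 0.5 µM, Mki67, against 0.326% of all genes tested, and for 0 at 0.2 µM, against 0.0217%. At an unadjusted p under 0.05 there were 30 and 24 of the 43. The shares of all genes that were negative or under that threshold are not given here. The counts of signs and of unadjusted p therefore cannot be called particular to the 43. For Mki67 the difference at 0.5 µM was log2 -2.01 ± 0.42 (adjusted p = 0.0398, 95% interval -2.90 to -1.13), made of -1.59 ± 0.30 at 24 h and 0.42 ± 0.30 at 12 h. It did not pass without 9 of the 12 libraries of these groups taken out in turn, and it was -1.74 (adjusted p = 0.0372) without the 4 replicate 3 libraries at 12 h. Top2a had the largest difference, log2 -2.23 ± 0.57 (adjusted p = 0.135), and Nusap1, Cdk1 and Foxm1 had -1.72 ± 0.44, -1.30 ± 0.33 and -1.003 ± 0.25, none past the adjusted threshold.

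Between the times, the genes called within (+)-JQ1 were all lower at 24 h. In (+)-JQ1 at 0.5 µM, 15 of 43 were lower and 0 higher at 24 h, against 1.44% lower and 2.77% higher among all genes tested, with a median of log2 -0.81 and 37 of 43 at an unadjusted p under 0.05. At 0.2 µM, 7 were lower and 0 higher, against 0.623% and 2.67%, with a median of -0.61 and 33 of 43 at an unadjusted p under 0.05. The share of all genes at an unadjusted p under 0.05 is not given here for either dose. Ube2c (log2 -1.73 ± 0.33 and -1.34 ± 0.33), Ccnb1 (-1.75 ± 0.42 and -1.60 ± 0.42), Pttg1 (-1.64 ± 0.36 and -1.46 ± 0.36), Tpx2 (-1.70 ± 0.42 and -1.57 ± 0.42), Mki67 (-1.58 ± 0.30 and -1.29 ± 0.30), Nusap1 and Plk1 passed at both doses. Without the 4 replicate 3 libraries at 12 h, 5 genes were lower at 0.5 µM and 7 at 0.2 µM. Taking out 1 library at a time left 2 to 15 lower at 0.5 µM, with 2 without replicate 3 at 12 h or replicate 1 at 24 h, 4 without replicate 2 and 8 without replicate 3 at 24 h. At 0.2 µM it left 0 to 4, with 0 without replicate 3 of either time. Settings other than the libraries also moved these counts. At 0.5 µM 26 were lower with a pseudocount of 0.1, 27 with library weights and 4 with a pseudocount of 5. At 0.2 µM 14 were lower after correction for GC content, 1 with the compared groups alone and 0 with a pseudocount of 5.

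Within (−)-JQ1, over both doses, few genes passed between the times. Of 43, 2 were higher at 24 h than at 12 h, Aurkb (log2 0.53 ± 0.18, adjusted p = 0.0485) and Birc5 (0.63 ± 0.21, adjusted p = 0.0440), against 11% of all genes tested. Cdc25b was lower (-0.72 ± 0.11, adjusted p = 0.000118), against 4.62%. The median was log2 0.20. Without the 4 replicate 3 libraries at 12 h, 12 genes were higher and 1 lower.

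No gene's response was shown to differ between the doses. The effect of the enantiomer differed between 0.5 and 0.2 µM for 0 of 43 genes by limma at 24 h, against 0.29% of all genes tested, and for 0 at 12 h, against 0.0435%. At an unadjusted p under 0.05 there were 0 at either time, against 779 of 13801 genes at 24 h and 386 at 12 h. The medians of the difference were log2 0.03 at 24 h and 0.14 at 12 h, and single genes ran from -0.51 to 1.02 at 24 h. Pttg1 had the value of 1.02. Within (+)-JQ1, 0.5 against 0.2 µM gave 0 of 43 genes at 24 h (2.15% of all genes tested) and 0 at 12 h (0.645%). Within (−)-JQ1 it gave 0 at 24 h (0.00725%) and 0 at 12 h (0%). In these 4 comparisons 0 genes had an unadjusted p under 0.05. The intervals were wide: the 95% interval of the difference at 24 h was -1.16 to 0.61 for Mki67 and -1.30 to 1.07 for Top2a, so equal effects at the 2 doses were not shown.

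By mean level over the 8 groups, (+)-JQ1 at 24 h was the lowest for 41 of the 45 genes, 19 at 0.5 µM and 22 at 0.2 µM. The highest group was (+)-JQ1 at 0.5 µM and 12 h for 23 genes, (−)-JQ1 at 0.5 µM and 24 h for 11 and (−)-JQ1 at 0.2 µM and 24 h for 5, with the rest spread over the other groups. The same orders were not computed over all genes, so these counts cannot be called particular to the 45. The orders rest in part on the replicate 3 libraries at 12 h. Without those 4, the highest group was (+)-JQ1 at 0.5 µM and 12 h for 11 genes, (−)-JQ1 at 0.5 µM and 24 h for 17 and (−)-JQ1 at 0.2 µM and 24 h for 14, and (+)-JQ1 at 24 h was the lowest for 19 at each dose.

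Other mitotic genes outside the 45, listed from general knowledge, were lower at 24 h as well. Of 54 tested, 26 fell and 0 rose at 0.5 µM and 24 h, and 28 fell and 0 rose at 0.2 µM, with medians of log2 -0.44 and -0.54. Over all genes tested 24.5% and 21.8% fell and 13.7% and 11% rose. Pbk, a mitotic kinase, was at a mean of 0.199 FPKM in (+)-JQ1 and 3.48 FPKM in (−)-JQ1 at 0.5 µM (log2 -1.84 ± 0.33, adjusted p = 0.000166). Nuf2, a kinetochore subunit, and Kif22, a chromokinesin, fell (log2 -1.22 ± 0.34 and -1.22 ± 0.31). At 12 h, 5 rose and 2 fell at 0.5 µM, and 0 rose and 2 fell at 0.2 µM. Over all genes tested 12.2% rose and 26.1% fell at 0.5 µM, and 8.23% rose and 19.6% fell at 0.2 µM.

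Genes of S phase and DNA replication, the stage before, were lower at 24 h too, with 21 of 33 lower and 3 higher at 0.5 µM and 19 lower and 0 higher at 0.2 µM. The shares over all genes tested were 24.5% and 21.8% lower and 13.7% and 11% higher. The helicase subunits Mcm3 and Mcm5 fell at 0.5 µM (log2 -1.69 ± 0.21 and -1.62 ± 0.21), as did Rrm2, a subunit of ribonucleotide reductase (-1.59 ± 0.25). At 12 h, 6 of 33 were lower at each dose, against 26.1% of all genes tested at 0.5 µM and 19.6% at 0.2 µM. There were 4 higher at 0.5 µM and 3 at 0.2 µM, against 12.2% and 8.23%. Within (−)-JQ1, 21 of 33 were higher at 24 h than at 12 h, against 11% of all genes tested. Within (+)-JQ1 0 were lower at 24 h at either dose, against 1.44% at 0.5 µM and 0.623% at 0.2 µM. Whether the S phase and mitotic genes differ in these counts was not tested.

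Further lists held genes that act in mitosis or upstream of it. Of 14 subunits of the anaphase promoting complex, 1 rose, Anapc5 (log2 0.59 ± 0.12), and 1 fell, Cdc26 (-0.43 ± 0.11), at 0.5 µM and 24 h, with a median of -0.03. Of 11 cohesin genes, Smc3, a ring subunit, rose (0.49 ± 0.18) and Esco2, the acetyltransferase that locks cohesin in S phase, fell (-1.07 ± 0.21). Among all genes tested 13.7% rose and 24.5% fell, so the counts of both lists were not above those shares. Of 16 regulators of the E2F and MuvB families, 5 fell and 2 rose, shares near the 24.5% lower and 13.7% higher among all genes tested. The activator E2f3 (-1.33 ± 0.12), the repressor E2f8 (-0.97 ± 0.14) and Lin9, a MuvB subunit (-0.77 ± 0.14), were lower at 0.5 µM and 24 h, and E2f5 (0.77 ± 0.13) and the retinoblastoma gene Rb1 (0.61 ± 0.13) were higher. At 0.5 µM and 12 h, 4 of the 16 fell and 2 rose, shares near the 26.1% lower and 12.2% higher among all genes tested. E2f3 and Lin9 were lower there, with log2 -1.13 ± 0.12 and -1.03 ± 0.14. Whether these regulators have a part in the change of the mitotic genes was not tested.

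The promoters of these genes share 2 short motifs that the choice of genes did not use. The CHR element, TTTGAA, is bound by the MuvB complex, and the CCAAT box by NF-Y. Both were searched on both strands, so CHR also reads TTCAAA and the CCAAT box ATTGG, in the 250 bases before and 50 after the RefSeq start in build GRCm38.p6, which is not the build of the expression values, so genes were matched by name. Windows were at hand for 38 of the 45 genes, and not for Aurkb, Ccna2, Cdc25c, Foxm1, Kif20a, Smc4 and Tpx2. 27 of the 38 (71.1%) held a CHR match, against 20.2% of 27025 genes with a window. 30 (78.9%) held a CCAAT box, against 41.1%, and 25 (65.8%) held both, against 8.97%. In 25 of the 38 a CHR match lay within 50 bases of the start, against 5.72% of all genes. CHR was present in 16 of 22 genes that fell at 0.5 µM and 24 h and in 11 of 16 that did not, and the CCAAT box in 18 of 22 and 12 of 16. A match is a stretch of letters, and whether a factor binds there was not tested.

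**Figure D5:**
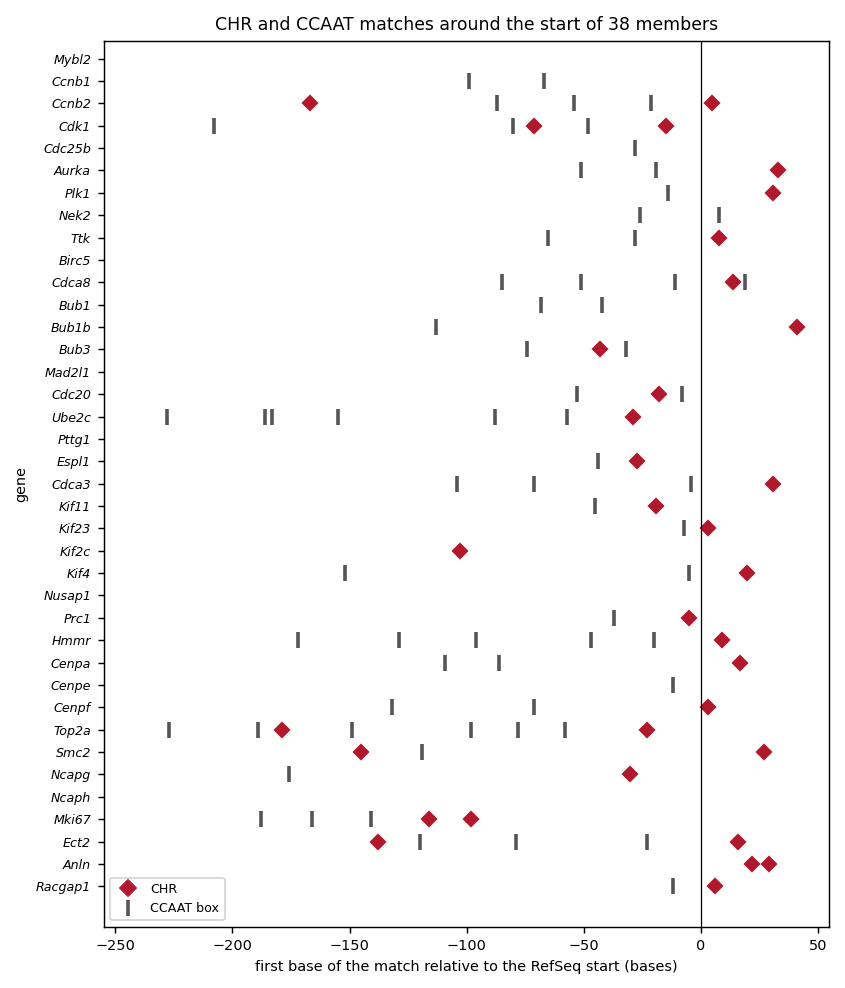
Position of CHR (diamonds) and CCAAT box (ticks) matches, on either strand, relative to the RefSeq start (horizontal axis, in bases) in the 38 genes with a window (vertical axis, by role). CHR matches gather within 50 bases of the start, and CCAAT boxes lie mostly before it; for the 3 genes with more than 1 window, 1 is drawn.

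The windows of the 5 genes with the most negative log2 fold changes of FPKM + 1 at 0.5 µM and 24 h among those with a CHR match are shown, to let the spacing of the motifs be read, with the CHR and CCAAT letters of either strand in capitals and the gene's strand 5′ to 3′. Top2a lies at chr11:99024140-99024439 on the minus strand, Cdca8 at chr4:124936868-124937167 (minus), Mki67 at chr7:135716330-135716629 (minus), Ube2c at chr2:164769679-164769978 (plus) and Racgap1 at chr15:99651607-99651906 (minus). The start of the gene is the base after the first 250; it is position 1, and negative positions lie before it.
Top2a: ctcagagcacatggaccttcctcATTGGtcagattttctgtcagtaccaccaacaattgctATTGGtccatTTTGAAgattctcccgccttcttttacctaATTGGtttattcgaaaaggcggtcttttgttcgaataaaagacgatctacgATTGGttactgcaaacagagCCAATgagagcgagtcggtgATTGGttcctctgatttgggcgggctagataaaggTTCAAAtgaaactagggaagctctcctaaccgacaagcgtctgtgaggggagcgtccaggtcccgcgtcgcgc
Cdca8: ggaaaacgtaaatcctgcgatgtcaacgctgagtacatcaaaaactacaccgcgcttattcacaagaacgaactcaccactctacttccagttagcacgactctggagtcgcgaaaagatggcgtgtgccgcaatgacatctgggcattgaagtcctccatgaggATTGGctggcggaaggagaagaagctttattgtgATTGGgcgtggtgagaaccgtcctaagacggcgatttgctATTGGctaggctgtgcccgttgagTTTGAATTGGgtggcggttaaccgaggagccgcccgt
Mki67: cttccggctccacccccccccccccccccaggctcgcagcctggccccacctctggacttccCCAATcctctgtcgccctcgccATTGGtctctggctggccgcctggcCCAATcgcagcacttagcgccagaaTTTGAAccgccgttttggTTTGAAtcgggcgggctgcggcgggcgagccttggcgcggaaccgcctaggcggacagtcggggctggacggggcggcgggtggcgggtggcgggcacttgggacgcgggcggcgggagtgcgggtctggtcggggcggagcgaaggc
Ube2c: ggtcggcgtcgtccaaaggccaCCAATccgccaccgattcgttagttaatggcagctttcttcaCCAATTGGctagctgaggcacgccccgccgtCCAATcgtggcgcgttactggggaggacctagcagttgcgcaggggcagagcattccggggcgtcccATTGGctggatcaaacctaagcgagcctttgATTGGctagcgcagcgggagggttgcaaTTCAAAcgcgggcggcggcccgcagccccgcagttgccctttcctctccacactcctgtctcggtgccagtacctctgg
Racgap1: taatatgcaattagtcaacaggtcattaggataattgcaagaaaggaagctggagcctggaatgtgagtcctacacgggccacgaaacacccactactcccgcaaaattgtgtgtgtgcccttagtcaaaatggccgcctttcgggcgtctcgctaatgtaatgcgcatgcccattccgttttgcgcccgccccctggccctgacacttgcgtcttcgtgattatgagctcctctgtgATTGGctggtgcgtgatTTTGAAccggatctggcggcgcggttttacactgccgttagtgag

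Top2a and Mki67 each hold 2 CHR matches, and Top2a and Ube2c hold 6 CCAAT boxes each. In Top2a, Ube2c, Cdca8 and Racgap1 a CHR match begins within 30 bases of the start, at -23, -29, 14 and 6. In Cdca8 a CCAAT box on the other strand overlaps the end of the CHR. Nusap1 (log2 -1.19 ± 0.31 at 0.5 µM and 24 h) has neither motif in its window at chr2:119618048-119618347 (plus strand). Kif23, chosen for display after its values were seen because it rose at 12 h and did not fall by the test at 24 h, holds both at chr9:61946750-61947049 (minus strand), with the CHR at 3.
Nusap1: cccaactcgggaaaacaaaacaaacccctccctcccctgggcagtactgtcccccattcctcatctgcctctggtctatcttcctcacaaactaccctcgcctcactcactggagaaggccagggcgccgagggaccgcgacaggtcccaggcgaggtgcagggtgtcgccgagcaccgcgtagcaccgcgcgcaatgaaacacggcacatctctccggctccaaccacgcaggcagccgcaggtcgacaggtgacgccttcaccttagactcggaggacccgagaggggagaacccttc
Kif23: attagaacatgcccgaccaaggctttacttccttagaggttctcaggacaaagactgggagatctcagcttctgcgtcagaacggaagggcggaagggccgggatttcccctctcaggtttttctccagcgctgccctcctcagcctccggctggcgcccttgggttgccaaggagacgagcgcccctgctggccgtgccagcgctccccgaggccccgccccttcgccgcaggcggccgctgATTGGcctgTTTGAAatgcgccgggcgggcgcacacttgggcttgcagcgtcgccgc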

How the data were processed

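RNA was measured in 24 libraries (8 groups of 3), and the values as deposited are FPKM per gene symbol, computed by the authors. Per the submitters' processing notes, FastQC, TopHat2 and the mouse build mm9 were used. Their versions, the program and annotation behind the FPKM and any scaling between libraries are not given in the sources used here. Per the labels' protocols, poly(A) RNA was primed with random hexamers. Strand use in counting is not given in the sources used here, so reads of overlapping antisense genes could not be told apart.

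58 entries of 29 repeated symbols were left out. The test took the 13801 genes that reached 1 FPKM in 3 or more libraries. It was run by limma 3.58.1 in R 4.3.3 on log2(FPKM + 1), with 1 mean per group and 16 residual degrees of freedom, moderated by empirical Bayes (trend and robust options). A Benjamini-Hochberg adjusted p under 0.05 made a call, with p-values adjusted over every gene tested in each of 15 comparisons. A rise or fall means a call, and 95% intervals come from the same fit. P-values rest on the spread between the preparations of a group, pooled over all groups and both times. That spread includes the shift of replicate 3 at 12 h. The test was run on simulated data with independent normal noise in each library. Those data held no shift shared by replicate 3 libraries and no steps between low values, so they do not check the test under these. The 45 genes, the gene lists and the tests were chosen with earlier results of these data known.

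Values in every library are given for Mki67, Ccnb1, Cdk1, Top2a, Foxm1, Mybl2, Aurka and Plk1. For the genes with the largest and smallest change at 0.5 µM and 24 h in each role group, values are given in every library at 24 h, and for some of them at 12 h too. Of each further list, up to 3 called genes with the largest change at 0.5 µM and 24 h are named. E2f5 and Rb1 were named after their values were seen, as the called genes that rose. Promoter windows are from RefSeq, build GRCm38.p6.

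The alternatives were other pseudocounts (0.1 and 5), no filter on low values, median-of-ratios scaling, removal of a trend on GC content (span 0.3, known for 13046 genes), library weights, a replicate block, the compared groups alone, and leaving out libraries.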

Additional observations from a re-analysis of the deposited data

Results flagged for a closer look

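For Mki67, the effect of the enantiomer at 0.5 µM differed between the times, by a limma test of the difference itself. The effect was log2 -1.59 ± 0.30 at 24 h and 0.42 ± 0.30 at 12 h, and the difference, 24 h minus 12 h, was -2.01 ± 0.42 (SE, adjusted p = 0.0398). All 3 (+) libraries were below all 3 (−) libraries at 24 h, and the groups overlapped at 12 h. The (+) library of replicate 3 at 12 h held 6.20 FPKM, against 2.06 and 1.71 FPKM in the other 2. Its part in the difference was measured by leaving out the 4 replicate 3 libraries at 12 h, a choice made after seeing the data, which gave -1.74 (adjusted p = 0.0372). The call was lost in 9 of the 12 fits that leave out 1 library, and with a pseudocount of 5, no filter, the replicate block (-2.01, adjusted p = 0.0534) or the compared groups alone. At 0.2 µM the difference was -1.49 (adjusted p = 0.411). It was the 1 gene of the 43 tested whose difference passed at 0.5 µM.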

How the results depend on the processing

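The counts below are of the 43 genes tested, called by limma; the cause of each change was not tested. At 24 h and 0.5 µM, 26 genes were lower, and all alternatives gave 22 to 32, except leaving out 1 library at a time, which gave 16 to 26. At 24 h and 0.2 µM the 26 lower genes became 17 with a pseudocount of 5, 4 with library weights, 10 without the 2 libraries of highest summed FPKM, and 14 to 22 without 1 library. The higher count there, 0, became 1 after GC correction and 0 to 1 without 1 library. No single gene's called effect of the enantiomer changed sign under any alternative, but single calls at 24 h differed in firmness. Ect2 lost its call in 7 of 14 alternatives at 0.5 µM and 9 of 15 at 0.2 µM. At 0.2 µM Cdc20 lost it in 12 of 15, Mad2l1 and Kif11 in 9 each and Nek2 in 8. Nusap1 and Aurkb lost it in 0 at each dose.

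At 12 h and 0.5 µM the 2 higher genes became 1 with a pseudocount of 0.1, with no filter, with the compared groups alone and without the 4 replicate 3 libraries at 12 h (an alternative chosen after seeing the data). They became 5 with median-of-ratios scaling, 8 with library weights, 9 after GC correction and 0 to 4 without 1 library. The 1 lower gene became 0 with median-of-ratios scaling, after GC correction, without the replicate 3 libraries and without any 1 library. At 12 h and 0.2 µM the 0 higher genes became 1 after GC correction. The 1 lower gene there became 0 without the replicate 3 libraries and 0 to 1 without 1 library.

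Between the times at 0.5 µM, the 1 gene whose enantiomer effect differed became 0 with a pseudocount of 5, no filter, the replicate block or the compared groups alone. It became 9 with library weights, 2 after GC correction or without the replicate 3 libraries, and 0 to 1 without 1 library. For 24 against 12 h within (+)-JQ1 at 0.2 µM, the 7 lower genes became 12 and 0 with pseudocounts of 0.1 and 5, and 2 with no filter. They became 14 after GC correction, 1 without the 2 libraries of highest summed FPKM or with the compared groups alone, and 0 to 4 without 1 library. Within (+)-JQ1 at 0.5 µM the 15 lower genes became 26 and 4 with pseudocounts of 0.1 and 5, 9 with no filter and 23 with median-of-ratios scaling. They became 27 with library weights, 24 after GC correction, 4 with the compared groups alone, 5 without the replicate 3 libraries and 2 to 15 without 1 library. Within (−)-JQ1 over both doses the 2 higher genes became 0 with a pseudocount of 0.1 or median-of-ratios scaling, and 1 with no filter, the replicate block or library weights. They became 4 with the compared groups alone, 12 without the replicate 3 libraries and 0 to 5 without 1 library. The 1 lower gene became 2 with median-of-ratios scaling, the replicate block or GC correction, and 1 to 2 without 1 library. For 0.5 against 0.2 µM within (−)-JQ1 at 24 h, 0 genes became 0 to 1 without 1 library.

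With the replicate block, 26 genes were lower at each dose at 24 h. It moved no count by over 1.5 times beyond those named. The block fits the same shift for a replicate number at both times. It therefore cannot take up the shift of replicate 3 seen at 12 h only, and does not settle whether pairing matters there. Same-numbered libraries were not taken as pairs: no label says that a number marks a shared preparation, and over all genes the deviations of each pair from its group means correlated above 0.1 in all 3 pairs only at 0.2 µM and 12 h (0.105, 0.133 and 0.112; other pairs -0.345 to 0.358). Over the 43 genes tested these correlations were 0.313 to 0.749 at 12 h and -0.651 to 0.601 at 24 h. At 12 h, 15 of the 45, Mki67 and Ccnb1 among them, were higher in (+) than in the same-numbered (−) library in all 6 pairs. Cdc25b, Smc2 and Racgap1 were lower in all 6. The shares over all genes were not computed, so these counts cannot be called particular to the 45. Removing the trend on GC content (GC correction) moved the median of all genes by 0.128 to 0.149 in log2 over the 4 comparisons of the enantiomers. With it removed, the median of the 43 genes was -0.65 at 0.5 µM and -0.56 at 0.2 µM at 24 h. The absolute number of reads is unknown, so the counting error of genes near 1 FPKM is unknown.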
